A study of Mus musculus with 24 samples.

Results

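Serum extracellular vesicles (EVs) taken 6 h after tibia surgery were compared with those of control mice across mature miRNAs. The comparison used the 6 libraries of the surgery group (S6h) and the 6 libraries of the Control group. A miRNA was tested when its reads reached at least 10 CPM (the count scaled to the library's total) in at least 6 of these 12 libraries. This rule kept 259 of the 1966 mature miRNAs in the table, and 567 of the 1966 had at least 1 count in the 12 libraries. The 259 held between 99.7% and 99.9% of the counts of each library. At the edge of the rule, 17 miRNAs reached 10 CPM in exactly 6 libraries (median of their mean level 32.1 CPM), and 23 just missed it with 5 libraries (20.6 CPM).

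All mice were wild type C57BL/6 males of 14 to 16 weeks, and each library came from a single mouse. S6h mice had an open fracture of the left tibia that was stabilised with a pin in the marrow canal, for which leg muscles were parted, under isoflurane with buprenorphine as analgesic. Control mice received saline under the skin and, as far as the methods state, neither operation nor isoflurane, so surgery, anaesthesia and analgesia cannot be told apart in this comparison. In both groups blood was drawn from the heart under pentobarbital and left to clot, the vesicles were precipitated from serum with the ExoQuick ULTRA kit, and small RNA was sequenced with a NEXTFLEX kit. The study asked whether vesicle cargo in the blood changes after surgery. The S24h and S72h groups, with 6 mice each, entered the model to share its estimate of the spread, and the TMM scaling was computed over all 24 libraries.

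A mature miRNA is a short RNA that guides Argonaute proteins to messenger RNAs, and its seed, the bases near the 5′ end, does most of the pairing. Cells release miRNAs inside vesicles, and several miRNAs are so enriched in a tissue that they are used as blood markers of it: miR-1, miR-133, miR-206 and miR-499 for striated muscle, miR-122 for liver, and miR-451a for red cells. Tissue injury, clotting and haemolysis are all known to alter the miRNAs of serum. In such bulk material, fewer vesicles of a source and less RNA per vesicle cannot be told apart.

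The sequences below are of miRNAs described in the comparison, with the seed (bases 2 to 8) in capitals. RefSeq entries on GRCm38.p6, the build of the files, were matched for 225 of the 259 tested miRNAs. The muscle miRNAs are shown first, as the comparison opens with them, followed by 2 miRNAs with higher values and by liver, injury, red cell and abundant vesicle miRNAs.
miR-206-3p: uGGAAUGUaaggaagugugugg
miR-133b-3p: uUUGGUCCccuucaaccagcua
miR-499-5p: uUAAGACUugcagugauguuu
miR-181a-5p: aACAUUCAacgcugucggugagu
miR-676-3p: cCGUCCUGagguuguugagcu
miR-192-5p: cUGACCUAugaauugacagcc
miR-194-5p: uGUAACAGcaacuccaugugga
miR-21a-5p: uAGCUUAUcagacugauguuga
miR-451a: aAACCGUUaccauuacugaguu
miR-23a-3p: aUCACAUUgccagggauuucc
miR-24-3p: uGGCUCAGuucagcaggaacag
miR-191-5p: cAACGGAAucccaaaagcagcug

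miR-206-3p (chr1:20679055-20679076, plus strand) and miR-133b-3p (chr1:20682834-20682855, plus strand) lie in exons of the same lincRNA gene, Gm28653, in the Gencode annotation of GRCm38. miR-499-5p (chr2:155622893-155622913, plus strand) lies in an intron of Myh7b, a myosin heavy chain gene. miR-676-3p (chrX:100381151-100381171, plus strand) lies in an intron of Eda. miR-192-5p (chr19:6264857-6264877, plus strand) overlaps no other annotated gene. miR-21a-5p (chr11:86584120-86584141, minus strand) overlaps an exon of at least 1 transcript of Vmp1. miR-451a (chr11:78073186-78073207, plus strand) overlaps no other annotated gene. miR-1a-3p, miR-133a-3p, miR-133a-5p, miR-122-5p and miR-150-5p are given by name.

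Total counts ranged from 63956 to 263211 in Control and from 102568 to 471801 in S6h, and 3 counts, the upper limit that a count of 0 allows, corresponded to between 6.36 and 46.9 CPM. These limits cover counting error only. On the log2 scale the totals of S6h were 0.68 higher (exact two-sided permutation test, p = 0.132, n = 6 per group). The libraries did not differ detectably in the number of miRNAs expected at equal depth (258.9 ± 29.4 in Control and 280.8 ± 31 in S6h, SD, n = 6; exact permutation p = 0.236). The share of the 10 most abundant miRNAs was 51.1% ± 4.49 in Control and 50.9% ± 2.52 in S6h (SD, n = 6; exact permutation p = 0.950). The log2 ratio of miR-451a to miR-23a-3p, a common sign of haemolysis, was -0.21 ± 0.97 in Control and -0.78 ± 0.31 in S6h (SD, n = 6; exact permutation p = 0.225). Adjusted over these 4 tests, the p values were 0.315, 0.315, 0.950 and 0.315, and the smallest p that the exact test allows is 0.00216. In a principal component analysis of the 12 libraries, Control 4 stood at 30.4 on the first component (18.6% of the variance), and the other 11 libraries lay between -9.52 and 7.35. The median correlation between libraries across miRNAs was 0.845 between the groups, against 0.827 within Control and 0.866 within S6h.

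The muscle miRNAs miR-1a-3p, miR-133a-3p, miR-133a-5p and miR-499-5p had higher fitted levels in S6h than in Control, by between 2.54- and 6.91-fold, and the liver miRNA miR-122-5p had a lower one. None of these differences passed the test over all miRNAs. In edgeR's quasi-likelihood test, 0 of 259 miRNAs (0%) met both thresholds, a p under 0.05 after Benjamini-Hochberg adjustment and a change of 1.5-fold or more, and the smallest adjusted p was 0.992. For no miRNA (0%) did the 6 S6h values lie apart from the 6 Control values. At an unadjusted p under 0.05 there were 8 miRNAs, of which 6 were higher (2.32% of those tested) and 2 lower (0.772%). DESeq2 and limma-voom also called 0 miRNAs and had 13 and 26 with an unadjusted p under 0.05. Leaving out Control 4 gave 18 such miRNAs, 15 of them higher, and still 0 called.

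The direction of the bulk of the miRNAs depended on the scaling, the libraries fitted and the filter. With TMM factors over all 24 libraries 153 miRNAs had a higher and 106 a lower fitted level in S6h (median log2 fold change 0.10). With TMM over the 12 Control and S6h libraries alone 124 were higher (median -0.05). Under a filter of 10 CPM in 12 of 24 libraries 122 of 252 were higher (median -0.02). In the 24 libraries 107 were higher with DESeq2's size factors (median -0.14), 125 with upper quartile factors (median -0.04) and 108 with the column totals alone (median -0.08). Among the miRNAs with an unadjusted p under 0.05, 6 of 8 were higher with TMM over all 24 libraries. This was 4 of 11 with TMM over the 12 libraries and 2 of 11 with DESeq2's size factors. Small fold changes are therefore given beside the median of 0.10, and values from here on are CPM of library sizes scaled by TMM. The 10th and 90th percentiles of the log2 fold changes were -0.70 and 0.88.

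**Figure D1:**
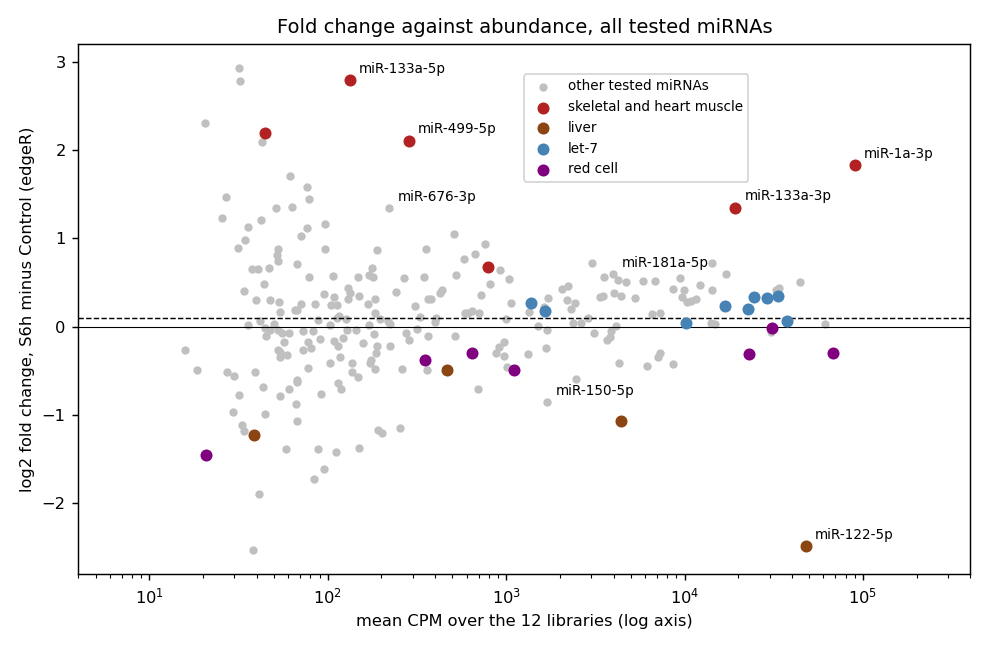
Log2 fold change (S6h minus Control, vertical axis) against the mean CPM of the 12 libraries (horizontal log axis) for the 259 tested miRNAs, 1 point each. Names mark the 8 with an unadjusted p under 0.05, colours mark the muscle, liver, let-7 and red cell lists, and the dashed line is the median of 0.10; miR-1a-3p stands at 1.83 among the most abundant miRNAs and miR-122-5p at -2.49.

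miR-1a-3p, which is made in skeletal muscle and heart, was the most abundant tested miRNA on average over the 12 libraries. Its levels in the 6 Control mice were lowest at 25424, 36189 at the median and 58889 CPM at the highest, and in the 6 S6h mice 56725, 100520 and 265781 CPM. Control 4 (58889 CPM) was the only Control library above any S6h library, and it exceeded only S6h 3 (56725 CPM). The group means were 39461 ± 12462 and 139985 ± 96116 CPM (SD, n = 6). Within S6h, S6h 2 (256697 CPM) and S6h 4 (265781 CPM) lay more than 2-fold above the other S6h mice. The log2 fold change was 1.83 (SE 0.64, 95% confidence interval 0.52 to 3.13, unadjusted p = 0.00759, edgeR adjusted p = 0.992). Leaving out any single mouse kept the value between 1.54 (without S6h 4) and 1.99 (without S6h 3).

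miR-133a-3p, which shares its muscle expression with miR-1, followed at a lower level. It ranged from 4328 to 19892 CPM in Control (median 8099) and from 11914 to 37741 CPM in S6h (median 33113). S6h 2, 3, 4 and 6 lay above every Control mouse, while S6h 1 (11914 CPM) and S6h 5 (12726 CPM) lay below Control 3 (19892 CPM) and Control 5 (18163 CPM). The log2 fold change was 1.35 (SE 0.55, interval 0.24 to 2.46, unadjusted p = 0.0189, edgeR adjusted p = 0.992).

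miR-133a-5p, the other arm of the same hairpin, was far scarcer, and 2 Control libraries had no count of it. Control mice ranged from 0 to 87.4 CPM (median 25.1) and S6h mice from 25 to 392 CPM (median 249). S6h 2 to 6 lay above every Control mouse, and S6h 1 stood at the level of the controls. Its log2 fold change was 2.79 (SE 1.2, unadjusted p = 0.0245, edgeR adjusted p = 0.992). The level rested on a median of 4 reads in Control and 46.5 in S6h.

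miR-499-5p, which is encoded in the intron of Myh7b and is found in heart and slow muscle fibres, ranged from 0 to 300 CPM in Control (median 96.7) and from 124 to 838 CPM in S6h (median 501). S6h 2, 3, 4 and 6 lay above every Control mouse and S6h 1 and 5 lay among the controls. The log2 fold change was 2.11 (SE 1.03, unadjusted p = 0.0483, edgeR adjusted p = 0.992). Its unadjusted p was under 0.05 in 3 of the 12 fits that left out a mouse and in 7 of 12 alternative fits, and it was 0.102 without S6h 2. Its value was 2.75 without Control 3.

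miR-133b-3p and miR-206-3p lie in exons of the same lincRNA gene, and miR-206 is restricted to skeletal muscle. miR-133b-3p ranged from 0 to 31 CPM in Control and from 6.24 to 124 CPM in S6h (log2 fold change 2.19, SE 1.19, unadjusted p = 0.0670). miR-206-3p ranged from 75.1 to 1327 CPM in Control and from 310 to 2020 CPM in S6h (log2 fold change 0.67, SE 0.72, unadjusted p = 0.358). The groups overlapped for both, widely so for miR-206-3p, whose second highest Control mouse (Control 6, 944 CPM) exceeded 4 S6h mice. For miR-206-3p the 95% interval of -0.80 to 2.14 spans from lower to more than 4-fold higher levels.

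Counted together, 6 of the 8 miRNAs on the muscle list were tested, and all 6 had a positive log2 fold change under each of the 4 scalings. With TMM their median was 1.97, against 0.10 over all tested miRNAs, and 4 of 6 had an unadjusted p under 0.05 and a higher level, against 2.32% of all. With DESeq2's size factors or the column totals this was 2 of 6, against 0.772% of all in either. It was 3 to 5 of 6 when a mouse was left out, in fits where 4 to 15 of all 259 tested miRNAs had such a p and a higher level. The 2 untested members are made in heart: miR-208b-3p had no count in the 12 libraries, and miR-208a-3p had 12 counts, 6 in S6h 2 and 6 in S6h 4. The other arm of the latter, miR-208a-5p, is not on the list and was named after its values were seen. It was tested, with 0 to 56.3 CPM in Control and 0 to 80.7 CPM in S6h (log2 fold change 1.23, SE 1.54, unadjusted p = 0.411). The list held between 3.42% and 9.03% of the counts of a Control library (median 5.33%) and between 6.02% and 26.6% of an S6h library (median 11.8%). The 5 S6h mice other than S6h 1 (6.02%) lay above every Control mouse. Blood came from the heart in both groups, and the part of heart and of leg muscle in these levels was not tested.

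**Figure D2:**
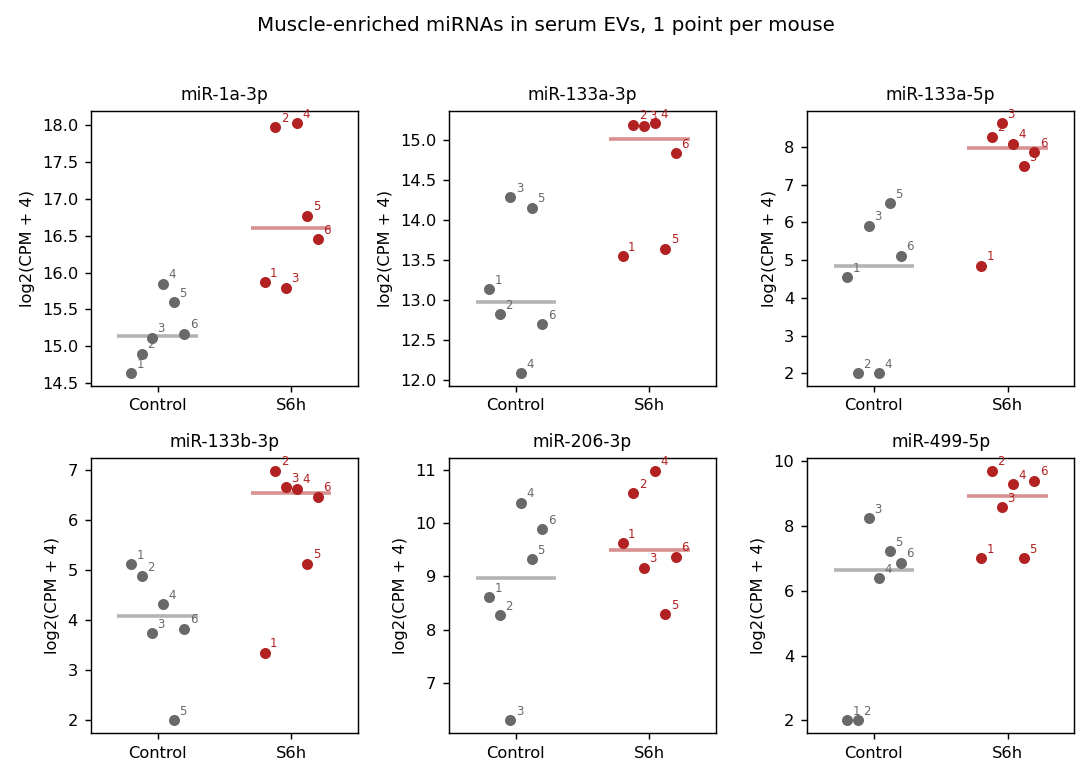
Levels of 6 muscle-enriched miRNAs on a log2(CPM + 4) scale (vertical axis) in the Control and S6h groups, with 1 numbered point per mouse and the group median as a bar. For miR-1a-3p, Control 4 alone exceeds an S6h mouse, and for miR-133a-5p S6h 1 lies apart from the other 5 S6h mice.

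In the groups sampled later, the same muscle miRNAs were not at the level of S6h in the median mouse. The median of miR-1a-3p was 21129 CPM in S24h (range 7430 to 28343) and 16456 CPM in S72h (range 4226 to 233916). That of miR-133a-3p was 5726 CPM in S24h (range 4058 to 12120) and 8017 CPM in S72h (range 1506 to 57937), whose highest mouse lay above every S6h mouse. Every S24h mouse lay below every S6h mouse for miR-1a-3p, while the highest S72h mouse lay within the S6h range. These values are a description and were not tested.

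miR-122-5p, the main miRNA of hepatocytes, varied more between mice than between groups. The 6 Control libraries held 163033, 3001, 8933, 169291, 5256 and 136842 CPM in the order of their numbers, and the 6 S6h libraries 17578, 33415, 2006, 13494, 17371 and 2925 CPM. Control 1, 4 and 6 lay above every S6h mouse, whereas Control 2, 3 and 5 lay within the S6h range and below 4 of the 6 S6h mice. The log2 fold change was -2.49 (SE 1.02, interval -4.56 to -0.41, unadjusted p = 0.0201, edgeR adjusted p = 0.992). Without Control 4 the value was -2.13 and the unadjusted p 0.0519.

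miR-192-5p, which is enriched in liver, gut and kidney, was likewise highest in Control 6 (12730 CPM), Control 1 (10658 CPM) and Control 4 (5414 CPM). The S6h mice lay in a narrow range of 2068 to 3477 CPM, and Control 2 (1711 CPM) and Control 5 (1398 CPM) lay below all of them. Its log2 fold change was -1.06 (SE 0.62, unadjusted p = 0.0961). miR-194-5p, which is co-transcribed with miR-192 from chr19 and is also encoded on chr1, had a log2 fold change of -0.49 (SE 0.73). The scarce miR-122-3p had a log2 fold change of -1.22 (SE 1.54). Single mice moved these values: miR-194-5p stood at -0.07 without Control 4, and without Control 1 miR-122-3p stood at -0.52 and the list median at -0.67 in place of -1.14. All 4 tested liver miRNAs had negative values under each of the 4 scalings, and 1 of them had an unadjusted p under 0.05, against 0.772% of all tested. This was 2 of 4 with the other 3 scalings, against 3.47% of all tested with DESeq2's size factors, 2.32% with upper quartile factors and 2.70% with the column totals, and 0 of 4 with limma-voom (0.772% of all) or robust estimation (0.386%). For miR-192-5p the unadjusted p was under 0.05 in 6 of 12 alternative fits, and its value was -0.69 without Control 6. The fifth member, miR-802-5p, did not reach the 10 CPM rule. The list took between 0.600% and 17.1% of the counts in Control and between 0.465% and 3.17% in S6h, and the Control values above 10% were those of Control 1, 4 and 6.

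**Figure D3:**
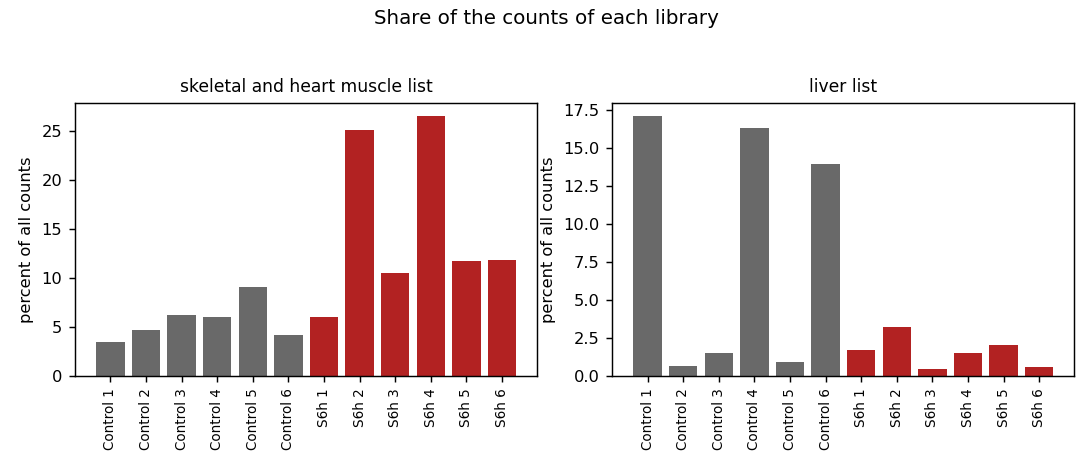
Percent of all counts of each library held by the muscle list (left) and the liver list (right), 1 bar per mouse, Control in grey and S6h in red. The muscle list reaches 26.6% in S6h 4, and the liver list exceeds 10% in Control 1, 4 and 6.

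Among the miRNAs of blood cells, miR-150-5p, which is abundant in mature lymphocytes, had a lower level in S6h. It ranged from 1359 to 3958 CPM in Control (median 1788) and from 392 to 1955 CPM in S6h (median 1132). Of the 6 S6h mice, 5 lay below the Control median, and the groups overlapped between 1359 and 1955 CPM. The log2 fold change was -0.85 (SE 0.40, unadjusted p = 0.0390, edgeR adjusted p = 0.992), and it was -0.59 with an unadjusted p of 0.148 without Control 4, the library with the highest level. Of the 9 leukocyte miRNAs, 7 were tested, with 4 positive values and a median of 0.04, and the 6 other than miR-150-5p had unadjusted p values of 0.124 or more. miR-223-3p of neutrophils and other myeloid cells averaged 3482 CPM in Control and 4519 CPM in S6h (log2 fold change 0.38, SE 0.31), and miR-142a-5p, which is made throughout blood cells, 2348 and 2408 CPM (0.04, SE 0.36).

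The red cell miRNAs had no unadjusted p under 0.05. miR-451a, the major miRNA of red cells, averaged 31209 ± 10402 CPM in Control and 30945 ± 9345 CPM in S6h (SD, n = 6), a log2 fold change of -0.01 with an interval of -0.79 to 0.77. miR-486b-5p averaged 74942 CPM in Control and 61058 CPM in S6h (log2 fold change -0.30, SE 0.38), with its highest level in Control 1 (123136 CPM). miR-486a-5p and miR-486b-5p are near-identical, so the division of reads between them is uncertain. All 7 red cell members had negative values under each of the 4 scalings, with a median of -0.31 with TMM, and their share was 10.4% to 19.1% in Control and 7.31% to 12.5% in S6h. Without Control 1 the median was -0.11 and miR-486b-5p stood at -0.10, and limma-voom gave 6 of 7 negative values.

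Of the 9 platelet and endothelial miRNAs, 8 had positive values with TMM (median 0.56) and 6 with DESeq2's size factors (median 0.33), and none had an unadjusted p under 0.05 in either. With limma-voom 2 of 9 had such a p and a higher level, against 24 of all 259 tested. This was 1 of 9 with the replicate number as a block and without Control 4, against 7 and 15 of 259. miR-126a-3p, which is made by endothelium and found in platelets, averaged 2860 CPM in Control and 4234 CPM in S6h (log2 fold change 0.57, SE 0.34, unadjusted p = 0.102). miR-199a-3p averaged 2298 and 3784 CPM (0.72, SE 0.42, unadjusted p = 0.0919). miR-199a-3p and miR-199b-3p, both on the list, may share reads, so their levels and the count of 8 rest on an uncertain division. Serum from clotted blood holds RNA released by platelets, whose part was not tested.

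miR-181a-5p, a regulator of lymphocyte signalling that is also made in many other tissues, ranged from 2027 to 4372 CPM in Control and from 3302 to 5912 CPM in S6h. S6h 3 to 6 lay above every Control mouse, and S6h 1 and 2 lay among the controls. The log2 fold change was 0.60 (SE 0.27, unadjusted p = 0.0328, edgeR adjusted p = 0.992) and 0.38 with DESeq2's size factors. miR-676-3p, from an intron of Eda, ranged from 48.3 to 257 CPM in Control and from 232 to 423 CPM in S6h, so that only Control 6 (257 CPM) lay above any S6h mouse. Its log2 fold change was 1.34 (SE 0.64, unadjusted p = 0.0427, edgeR adjusted p = 0.992). The unadjusted p was under 0.05 in 2 of 12 alternative fits for miR-181a-5p and in 3 of 12 for miR-676-3p, and in 6 and 5 of the 12 fits that left out a mouse.

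**Figure D4:**
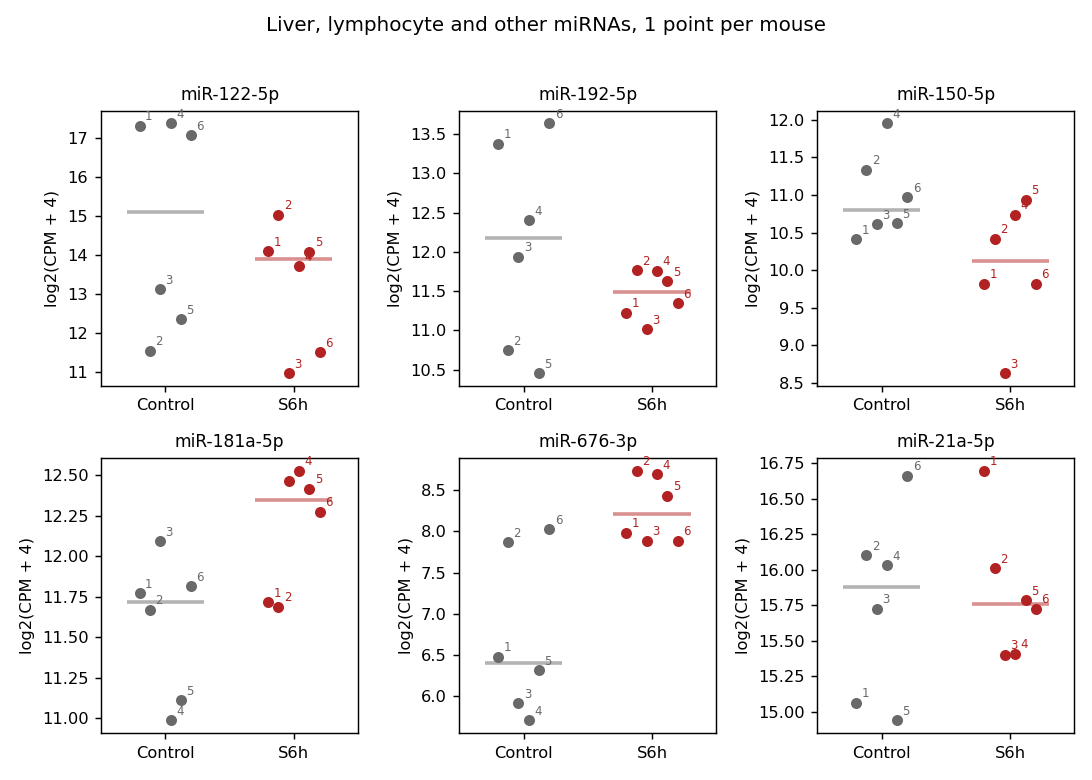
Levels of 6 further miRNAs on a log2(CPM + 4) scale (vertical axis) in Control and S6h, with 1 numbered point per mouse and the group median as a bar. Control 1, 4 and 6 stand above the other mice for miR-122-5p, and the groups of miR-21a-5p overlap over most of their range.

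The miRNAs known to respond to inflammation did not differ detectably at 6 h. miR-21a-5p, which is induced in injured and inflamed tissue, averaged 60172 ± 26740 CPM in Control and 61661 ± 23530 CPM in S6h (SD, n = 6), a log2 fold change of 0.04 with an interval of -0.72 to 0.79. miR-146a-5p, which dampens Toll-like receptor signalling, had a value of 0.34 (SE 0.33), and miR-155-5p, which is induced in activated macrophages, -0.18 (SE 1.11) at a mean of 82.2 CPM in Control. Of the 9 members, 7 were tested and none had an unadjusted p under 0.05. Their median was 0.06 with TMM, and 5 of 7 values were positive with TMM but 2 of 7 under the scaling with the fewest.

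The let-7 family, which restrains growth and is abundant in most differentiated tissues, was the most abundant seed family in the vesicles. Its sequences are shown because 9 tested members share all 7 seed bases and differ at few positions.
let-7a-5p: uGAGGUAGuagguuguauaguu
let-7b-5p: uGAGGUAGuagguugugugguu
let-7c-5p: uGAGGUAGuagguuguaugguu
let-7d-5p: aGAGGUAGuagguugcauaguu
let-7e-5p: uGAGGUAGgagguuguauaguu
let-7f-5p: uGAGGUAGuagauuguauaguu
let-7g-5p: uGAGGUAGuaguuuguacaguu
let-7i-5p: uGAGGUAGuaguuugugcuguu
miR-98-5p: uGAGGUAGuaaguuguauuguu

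Counted from the 5′ end of let-7a-5p, let-7c-5p differs by A19G, let-7e-5p by U9G and let-7f-5p by G12A, while let-7i-5p differs at 4 positions, so reads with a sequencing error can be assigned to another member. The family held between 12.7% and 22.2% of the counts in Control (median 17.9%) and between 10.3% and 25% in S6h (median 18.8%). All 9 log2 fold changes were between 0.05 and 0.35 with TMM over the 24 libraries (median 0.23). With TMM over the 12 Control and S6h libraries alone 7 of 9 were positive (median 0.07), and only 4 of 9 with DESeq2's size factors (median -0.04). Without S6h 1, 6 of 9 were positive with a median of 0.05. None had an unadjusted p under 0.05. The highest share, 25%, was that of S6h 1, and S6h 4 held the lowest with 10.3%.

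The 225 miRNAs with a sequence had 179 seeds, and 24 of these were shared by 70 miRNAs. The miR-30 list, whose 5p arms share the seed GUAAACA where a sequence was matched, had positive values for 6 of its 7 tested arms with TMM and for 5 under the scaling with the fewest (medians 0.43 and 0.16). Its largest was miR-30a-5p, with 10740 CPM in Control and 17700 CPM in S6h (log2 fold change 0.72, SE 0.40, unadjusted p = 0.0777). Its value was 1.19 without Control 4, where 3 of the 7 arms had an unadjusted p under 0.05 and a higher level against 5.79% of all tested, and 0.50 without S6h 6, where the list median fell to 0.24 with 5 of 7 positive values. miR-23a-3p and miR-24-3p, of which miR-24-3p is encoded at more than 1 place in the genome, averaged 36757 and 27979 CPM in Control and 52086 and 37307 CPM in S6h. Their log2 fold changes were 0.50 (SE 0.32) and 0.42 (SE 0.28), and the lowest S6h mouse had 39261 CPM of miR-23a-3p and the lowest Control mouse 17616 CPM.

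Of the lists not yet named, none held a miRNA with an unadjusted p under 0.05 with TMM in all 24 libraries. The 8 smooth muscle and matrix miRNAs had a median of 0.06 with 4 positive values, among them miR-29a-3p, which targets collagen messenger RNAs (0.48, SE 0.25, unadjusted p = 0.0647). The 7 tested epithelial miRNAs had a median of -0.18, although miR-375-3p, which is enriched in endocrine and some epithelial cells, averaged 524 CPM in Control and 1002 CPM in S6h (0.94, SE 0.46, unadjusted p = 0.0514). The 12 tested members of the imprinted Dlk1-Dio3 cluster had a median of -0.21, and the 10 members of the miR-17 and miR-106b clusters, which promote proliferation, one of -0.26 with 4 positive values. For the latter the median was -0.50 with 1 positive value with DESeq2's size factors, -0.09 without Control 6 and -0.48 without S6h 6. Of the 10 brain miRNAs, 4 were tested (median 0.31) and 3 had no count in any of the 12 libraries. The 9 miRNAs often used as references had a median of -0.05, with miR-191-5p at -0.05 (SE 0.29) and miR-484 at -0.59 (SE 0.30, unadjusted p = 0.0563). With DESeq2's size factors 2 of these 9 had an unadjusted p under 0.05 and a lower level, against 3.47% of all tested, and over the 12 alternative fits this p was under 0.05 in 9 for miR-484 and in 8 for miR-423-5p (-0.43, SE 0.27, with TMM). The medians of the leukocyte, inflammation-responsive and smooth muscle lists were negative with DESeq2's size factors (-0.25, -0.20 and -0.22), where the median over all tested miRNAs was -0.14. With TMM over the 12 Control and S6h libraries alone they were -0.15, -0.11 and -0.12, where the median over all was -0.05. That of the brain list was 0.03 with DESeq2's size factors and -0.04 with the column totals. Leaving out 1 mouse turned the medians of the epithelial list (0.04 without Control 4), the Dlk1-Dio3 cluster (0.07 without Control 5), the reference list (0.07 without Control 1) and the brain list (-0.41 without S6h 2), and without S6h 6 those of the leukocyte (-0.35), inflammation-responsive (-0.16) and smooth muscle (-0.12) lists. The Dlk1-Dio3 median was also positive with limma-voom (0.36, 7 of 12 positive).

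**Figure D5:**
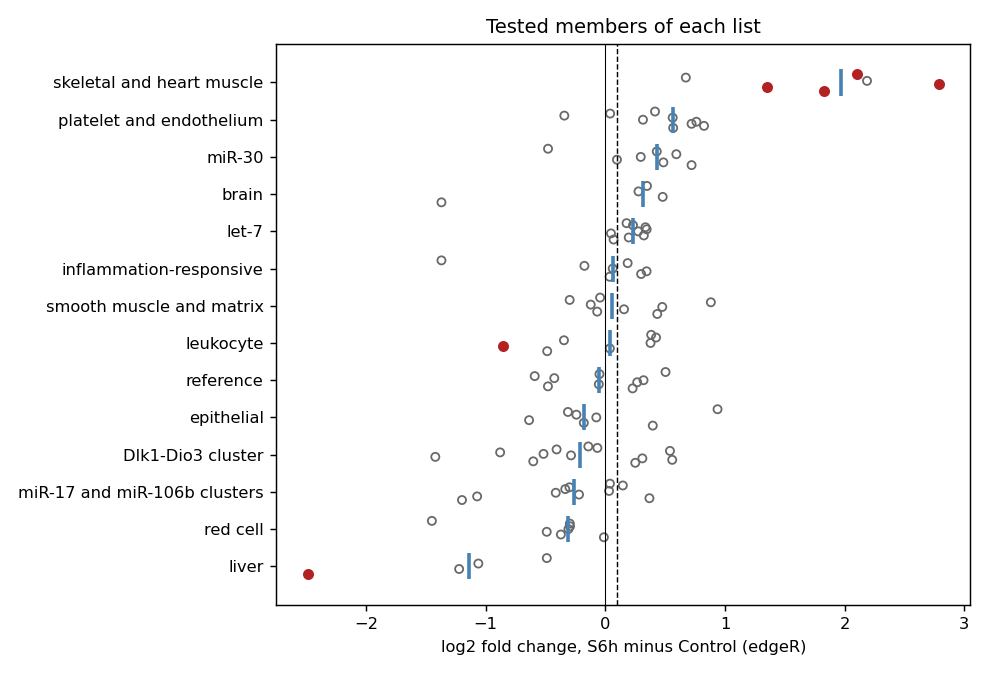
Log2 fold change (S6h minus Control, horizontal axis) of each tested member of the 14 lists, with the list median as a blue bar and filled red points for an unadjusted p under 0.05. The dashed line is the median of all tested miRNAs (0.10); the muscle list has the highest median (1.97) and the liver list the lowest (-1.14).

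The 95% interval of the log2 fold change lay within 2-fold in either direction for 42 of the 259 miRNAs and within 4-fold for 126. Of the 80 miRNAs that averaged 1000 CPM or more, 39 had an interval within 2-fold, and 10 had a fitted change of more than 1.5-fold. Of the 87 with a mean under 100 CPM none had an interval within 2-fold. The narrowest case among the named miRNAs was miR-186-5p, with a log2 fold change of -0.05 and an interval of -0.51 to 0.41. The 20 most abundant miRNAs held 67.8% of the counts on average, and 10 of them had an interval within 2-fold.

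The largest spread within S6h among miRNAs with at least 1000 CPM was that of miR-122-5p (SD 1.61 on the log2 scale), followed by miR-101a-3p (1.17), miR-203-3p (1.12), miR-143-3p (1.05) and let-7e-5p (1.03). miR-143-3p, a smooth muscle miRNA, stood at 7891 CPM in S6h 3 and at 38181 CPM or more in the other 5 S6h mice. In Control its highest value was 86624 CPM, in Control 4. Outside the 10 CPM rule, let-7b-3p was counted in 1 Control library (19 reads) and 5 S6h libraries (47 reads), and miR-139-3p in 1 Control library (5 reads) and 5 S6h libraries (27 reads). These were not tested.

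Absence of calls depended in part on how the model was built. A fit without a filter beyond 1 count called miR-1a-3p, miR-122-5p and miR-133a-3p. In that fit 116 of 567 miRNAs had an unadjusted p under 0.05, against 8 of 259 in the main fit. A fit of the 12 libraries alone gave a smallest edgeR adjusted p of 0.0579. With the replicate number as a block, the 12 libraries gave 1 call, miR-1a-3p (edgeR adjusted p = 0.0255). The adjusted p of miR-1a-3p ranged from 5.73e-06 to 0.999 over the alternatives, and that of miR-122-5p from 6.36e-11 to 0.999. The unadjusted p of miR-1a-3p was under 0.05 in all 12 alternative fits and in all 12 fits that left out a mouse.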

How the data were processed

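Per the methods, the authors removed adapters (cutadapt), mapped reads to the GRCm38 genome (Bowtie), kept those of miRNA length (SAMtools) and summarised them over miRBase mature miRNAs (featureCounts). The deposited values are whole-number counts without normalization. How reads that fit several loci were counted is not given in the sources used here.

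Libraries were grouped by their labels, and no 2 were identical. edgeR 4.0.16, DESeq2 1.42.0 and limma 3.58.1 were run in R 4.3.3, and permutation tests in Python 3.11.15. One edgeR quasi-likelihood model with TMM factors was fitted to the counts of all 24 libraries in 4 groups, and S6h was contrasted with Control. The study used DESeq2, an alternative here. Calls required a change of 1.5-fold or more and a p under 0.05 after Benjamini-Hochberg adjustment. Exact two-sided permutation tests over all assignments of the 12 libraries served for library values, and principal components used log2 CPM with a pseudocount of 4.

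The miRNAs and lists were chosen with earlier results of these data known. Named are the 20 most abundant miRNAs, those with an unadjusted p under 0.05, those with groups that do not overlap, the 5 with the largest fold change in each direction and the 5 with the largest SD in S6h at a mean of at least 1000 CPM, members of the 14 lists, and miRNAs outside the rule with a count in 5 or 6 libraries of a group and at most 1 of the other. Alternatives concerned the test, normalization, filter, libraries in the model, robust estimation, fold rule, a replicate block and leaving out each mouse. The S24h and S72h comparisons were not analysed here.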

Additional observations from a re-analysis of the deposited data

Results flagged for a closer look

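In 86 groups of 6 libraries (the library values, the list shares, and the levels of the 20 most abundant miRNAs and of the 8 with an unadjusted p under 0.05), 7 held a library whose gap to its nearest neighbour, as a share of the group's range, exceeded the 95% limit of Dixon's test; chance alone gives about 4.3. miR-133a-5p was low in S6h 1 (gap 0.699 of the range on the log2 scale), and the inflammation-responsive list, mostly miR-21a-5p, was high in the same mouse (0.661). miR-486b-5p (0.845) and miR-486a-5p (0.764) were high in Control 1. miR-143-3p was low in S6h 3 (0.766). The small share of the Dlk1-Dio3 cluster was high in Control 5 (0.706) and in S6h 3 (0.739).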

How the results depend on the processing

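No miRNA was called under DESeq2, limma-voom, RLE, upper quartile or total-count scaling, the 2 other filters on low values, the 12 libraries alone, robust estimation, a test against 1.5-fold, or after leaving out any single mouse; with no filter beyond 1 count 3 were called. The unadjusted p was under 0.05 for 8 miRNAs, and for 13 with DESeq2, 26 with limma-voom, 116 with no filter, and 6 to 18 after leaving out a mouse, with 18 without Control 4. The causes were not tested. With the replicate number as a block in the 12 libraries, 13 miRNAs had an unadjusted p under 0.05 and 1 was called, miR-1a-3p (log2 fold change 1.43, edgeR adjusted p = 0.0255). Same-numbered mice did not deviate together in every pair (correlations -0.0866 to 0.173), and 2 of the 6 S6h libraries correlated best with their own number. In the sample labels the mouse numbers of most same-numbered pairs are consecutive, and this check cannot exclude a shared order of handling. The methods state no pairing, and the main model used no block. Leaving miR-1a-3p and miR-122-5p out of the library sizes, an alternative chosen after seeing the data, gave 0 called and 8 with an unadjusted p under 0.05. Over 109 named miRNAs, 2567 of 2591 alternative fold changes moved by less than 1 SE and were not called, 20 moved by more, and 4 were called. Of these miRNAs 40 changed sign at least once, none of them among the 8 with an unadjusted p under 0.05. The difference in total counts ranged from 0.426 to 0.912 on the log2 scale when a mouse was left out, with an exact permutation p of 0.0260 without Control 1. The difference in the share of the 10 most abundant miRNAs was -0.16 percentage points, 0.665 for the 20 most abundant, and -1.28 to 0.828 when a mouse was left out. In the smallest library, Control 2, 1 read was worth 15.6 CPM by the column total and 12.8 CPM with the TMM factor.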
